A study of Mus musculus with 12 samples.

Results

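Livers that had received either of the study's 2 control adenoviruses were compared with each other: 3 libraries labelled shCtrl, the control for a knockdown virus, and 3 labelled Ad_GFP, the control for an overexpression virus. These 6 of the 12 libraries of the series were picked out by their titles. All 6 are liver RNA of WT (wild-type) mice taken after 9 days of a control adenovirus, and chow is named as the diet in the title of the series. The other 6 libraries carry the study's active viruses, ANG8 to raise ANGPTL8 and shANG8 to lower it, and they entered here through the shared estimate of the spread and as a reference for the level of Angptl8. Every library, controls included, therefore comes from a liver exposed to adenovirus, and no uninfected liver was analysed here. GFP is read here as green fluorescent protein and sh as short hairpin RNA. The sources used here do not give the promoters, hairpin sequences and virus doses, or the sex and age of the mice. The labels also do not say that the 3 libraries of a group came from separate mice, so the tests measure the spread between these libraries only.

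ANGPTL8, also called betatrophin or lipasin, is a small secreted protein made in liver and fat that rises with feeding and works with other members of its family to regulate lipoprotein lipase, the enzyme that clears triglyceride from blood. A control virus for overexpression makes a reporter protein in the infected hepatocyte, whereas a control virus for knockdown makes a hairpin that the cell's own small-RNA machinery processes without an intended target. Adenovirus of the usual type reaches mainly hepatocytes after intravenous injection, and Kupffer cells, the resident macrophages of the liver, take up much of what they meet. Interferons released during an infection switch on guanylate-binding and immunity-related GTPases and the genes that load peptides onto MHC molecules. The comparison of the controls asks what these livers look like before Angptl8 is manipulated, and how far apart replicates of a control lie.

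The 6 libraries held 14214619 to 15144312 counts each. Levels are given below as CPM, the usual unit of a gene's counts relative to all counts of its library, with library sizes scaled by TMM (a trimmed mean of the log ratios between libraries), and differences as log2 fold changes of shCtrl over Ad_GFP. Transcripts of the mitochondrial genome took 19.8%, 34.9% and 26.4% of the counts in Ad_GFP libraries 1, 2 and 3, against 24.2%, 22.9% and 23.6% in the shCtrl libraries. The group means were 27.1% ± 7.57 and 23.5% ± 0.681 (SD, n = 3 each, exact two-sided permutation test, p = 0.7, where the smallest p that 3 against 3 can give is 0.1). Ad_GFP_2 stood apart before any gene was compared. It lay at 59.6 on the first principal component, which held 34.7% of the variance among the 6 libraries, while the other Ad_GFP libraries lay at -10.1 and 19.6 and the shCtrl libraries at -29.9 to -16.7. Values without this library are given below for many of the gene lists and for some counts and measures of spread. They are not given for every result, and most single genes are shown with it only. Alb, the gene of serum albumin, took 3.37% ± 0.716 of the counts in Ad_GFP and 3.94% ± 0.688 in shCtrl (SD, n = 3 each, exact permutation p = 0.6), and markers of hepatocytes were present in all 6 libraries.

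Angptl8 was higher with the control hairpin virus than with the GFP virus. The gene (ENSMUSG00000047822, protein-coding) lies on the + strand at chr9:21835510-21837347 in GRCm38, inside the span of a gene of the other strand, Dock6, with which it shares 0 exonic bases. In the Ad_GFP libraries it stood at 96.8, 80.4 and 90.0 CPM (1530, 1086 and 1339 counts), and in the shCtrl libraries at 340, 391 and 167 CPM (5009, 5719 and 2200 counts). All 3 shCtrl libraries lay above all 3 Ad_GFP libraries, and the lowest of them was shCtrl_3. The log2 fold change was 1.75 (SE 0.33), with an adjusted p of 0.338 in edgeR's quasi-likelihood test with Benjamini-Hochberg adjustment, so the difference did not pass the threshold of 0.05 when corrected over all genes. By its unadjusted p the gene ranked 5 of 14686. The result depends on the tool: the adjusted p was 0.000335 in DESeq2, 1.16e-12 in edgeR without a filter on low counts and 0.0446 without shCtrl_3, when the log2 fold change was 2.05. Over all alternatives the adjusted p ranged from 1.16e-12 to 0.887 and the log2 fold change from 1.53 to 2.05. Dock6 stood at 39.0, 57.1 and 47.9 CPM in Ad_GFP and 54.4, 43.5 and 45.3 CPM in shCtrl, and its groups overlapped.

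Set beside the study's active viruses, the 2 controls bracketed the other groups. The means were 89.1 ± 8.24 CPM in Ad_GFP, 122 ± 37.1 in shANG8, 217 ± 84.0 in ANG8 and 299 ± 117 in shCtrl (SD, n = 3 each). The shANG8 libraries held 144, 143 and 79.2 CPM and the ANG8 libraries 165, 314 and 172 CPM. Ad_GFP and shANG8 overlapped, since shANG8_3 lay below all Ad_GFP libraries and the other shANG8 libraries above them. ANG8 and shCtrl overlapped as well, since shCtrl_3 lay among the ANG8 libraries, whereas the shANG8 libraries all lay below the ANG8 libraries. The control hairpin group thus had the highest mean of the 4, and it overlapped with the group whose virus was meant to raise the gene. Directions are given for the libraries as they are labelled, and whether a label of the control libraries was exchanged was not tested. The groups also differed in how even they were. The SD of log2 CPM of Angptl8 was 0.135 in Ad_GFP, larger than that of 17.7% of the genes tested in those libraries, and 0.656 in shCtrl, larger than that of 88.4%.

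**Figure D1:**
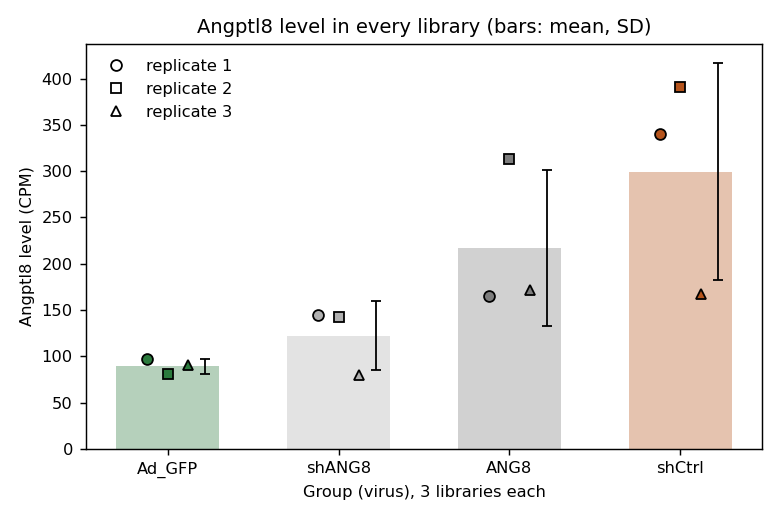
Angptl8 in every library of the series, in CPM, with 1 point for each library, bars for the group means and error bars for the SD (n = 3 a group). The Ad_GFP points lie together at 80.4 to 96.8 CPM, and the 3 shCtrl points lie above them at 167 to 391 CPM.

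The 250 bases before the start of Angptl8 are shown because the gene is known to respond to feeding and to lipogenic transcription factors. The window is chr9:21835260-21835509 on the + strand, from RefSeq for GRCm38.p6, printed 5′ to 3′ and all in lower case since none of the motifs searched was found in it.
Angptl8: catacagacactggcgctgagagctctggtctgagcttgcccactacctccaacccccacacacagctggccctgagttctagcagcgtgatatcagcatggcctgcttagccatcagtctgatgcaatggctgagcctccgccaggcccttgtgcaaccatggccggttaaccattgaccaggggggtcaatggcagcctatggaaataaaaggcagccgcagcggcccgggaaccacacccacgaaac
The motifs were CACGTG, an E-box bound by ChREBP and USF, which 6.02% of 32851 promoter windows of this length hold on either strand, and TCACNCCAC, a sterol response element, which 1.05% hold. The core of an interferon-stimulated response element (GAAA, any 2 bases, GAAA), and TTCNNNGAA, a gamma-activated sequence, were searched in the same way on both strands.

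Across the transcriptome the controls could not be separated at the threshold. Of 14686 genes tested, 0 passed an adjusted p of 0.05 in edgeR (0%), and the smallest adjusted p was 0.137. At an unadjusted p under 0.05, 621 genes (4.23%) were higher in shCtrl and 665 genes (4.53%) lower, and 288 were higher and 860 lower when libraries were scaled by their totals alone. Without Ad_GFP_1 the number higher was 966, without Ad_GFP_2 it was 384 with 328 lower, and without Ad_GFP_3 it was 380. The 3 shCtrl libraries all lay above the 3 Ad_GFP libraries for 1125 genes (7.66%) and all below for 1241 genes (8.45%). Other tools drew the line elsewhere: DESeq2 called 38 genes, 15 higher and 23 lower, edgeR without a filter on low counts called 96, and limma voom called 0. Leaving out Ad_GFP_1 gave 10 calls, 5 in each direction, and leaving out shCtrl_3 gave 1. The precision was a median SE of 0.261 on the log2 scale (quartiles 0.194 and 0.450), while the median size of a log2 fold change was 0.237. A total of 797 genes differed by 2-fold or more in either direction, and the groups did not overlap for 378 of them, 90 higher and 288 lower in shCtrl.

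Angptl8 was 1 of 12 genes named as higher in shCtrl, which were ordered by their unadjusted p among genes whose groups did not overlap. None of them passed the threshold in the reported edgeR fit, whereas DESeq2 called all 12, edgeR without a filter on low counts called 9 and the replicate block called 1. The genes were chosen by their p in the same counts, so these calls are not separate support. Ppp1r3c, the subunit that brings protein phosphatase 1 to glycogen, stood at 29.2, 33.5 and 26.6 CPM in Ad_GFP and 47.6, 65.8 and 54.5 CPM in shCtrl (log2 fold change 0.91, SE 0.20, adjusted p = 0.338). Cth, the cystathionine gamma-lyase of cysteine synthesis, stood at 193, 156 and 152 CPM against 213, 329 and 348 CPM (0.83, SE 0.20). Hamp, which encodes the iron hormone hepcidin, held 753, 424 and 505 CPM against 869, 1131 and 1409 CPM (1.02, SE 0.25), a value that is uncertain because 16.6% of its 50-base words also occur in Hamp2. The margin between the groups was small for Cth and Hamp. Mal2, a membrane protein of transcytosis in polarized cells, held 32.2, 21.2 and 26.1 CPM in Ad_GFP and 53.1, 44.6 and 44.6 CPM in shCtrl (0.84, SE 0.17, adjusted p = 0.338). Sdc1, a heparan sulphate proteoglycan that takes up lipoprotein remnants in hepatocytes, held 95.0, 72.6 and 85.7 CPM against 114, 136 and 164 CPM (0.71, SE 0.17). Bach2, a transcriptional repressor best known in lymphocytes, had the largest fold change of the genes named in this direction after Angptl8, from 7.47, 3.41 and 4.24 CPM to 20.6, 16.6 and 9.80 CPM (1.63, SE 0.35). The immune genes of this set were Serpinb9, an inhibitor of granzyme B, Lgals9, which encodes galectin-9, and the interferon-induced GTPases Irgm1 and Igtp, and their log2 fold changes lay between 0.75 and 1.00. Tmem62 completed the set at 12.5, 13.9 and 11.7 CPM against 22.3, 18.7 and 22.0 CPM.

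The genes named as lower in shCtrl were led by Cyp4a32, of the family of fatty acid omega-hydroxylases, and Resf1, a factor that silences retroelements, which ranked 2 and 3 by unadjusted p over all genes. Rank 1 belonged to Cfap44, a protein of cilia and flagella that was too low for the named set, at 0.822, 3.18 and 2.42 CPM in Ad_GFP and 0, 0.205 and 0 CPM in shCtrl. Cyp4a32 held 8.03, 10.7 and 5.99 CPM in Ad_GFP and 1.97, 2.19 and 2.89 CPM in shCtrl (log2 fold change -1.81, SE 0.31, adjusted p = 0.137 in edgeR). It is uncertain, since 43.8% of its 50-base words also occur in Cyp4a10, which held 27.5, 116 and 89.8 CPM in Ad_GFP against 18.1, 17.9 and 58.8 CPM in shCtrl. Resf1 (ENSMUSG00000032712, chr6:149309414-149335663, + strand) held 36.9, 89.2 and 60.5 CPM in Ad_GFP, highest in Ad_GFP_2, and an even 24.1, 23.0 and 21.4 CPM in shCtrl (-1.44, SE 0.25, adjusted p = 0.137). Ccp110, which caps centrioles, held 6.45, 15.7 and 15.3 CPM against 4.21, 5.06 and 4.64 CPM (-1.43, SE 0.32). Fbf1, a protein of the centriole's distal appendages, held 28.5, 22.7 and 20.2 CPM against 14.3, 9.98 and 10.1 CPM (-1.05, SE 0.24). The transcription factor Myc held 26.9, 16.1 and 11.3 CPM against 8.62, 4.71 and 7.68 CPM (-1.37, SE 0.31), and its highest library was Ad_GFP_1 where that of Resf1 was Ad_GFP_2. Hdc, the histamine-making histidine decarboxylase, held 17.6, 25.2 and 19.6 CPM against 10.9, 8.34 and 7.37 CPM (-1.23, SE 0.27). Alpl, the tissue-nonspecific alkaline phosphatase, held 29.7, 35.6 and 57.9 CPM against 20.4, 16.0 and 18.2 CPM (-1.17, SE 0.26). For Resf1, Ccp110, Myc and Alpl the range in CPM was wider in Ad_GFP. Slc22a5, the carnitine transporter, was the most even in Ad_GFP, at 19.7, 20.7 and 19.7 CPM against 13.5, 9.91 and 10.4 CPM (-0.83, SE 0.20), and is uncertain because of its neighbour Slc22a21. The remaining named genes were Elmod3, Slfn4, Plk5 and Ttbk1, with log2 fold changes from -1.47 to -0.77, of which Slfn4 shares 11.3% of its 50-base words with Slfn3. DESeq2 called all 12 genes named in this direction, edgeR without a filter on low counts called 10 of them and the replicate block called 2. These genes too were chosen by their p in the same counts.

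**Figure D2:**
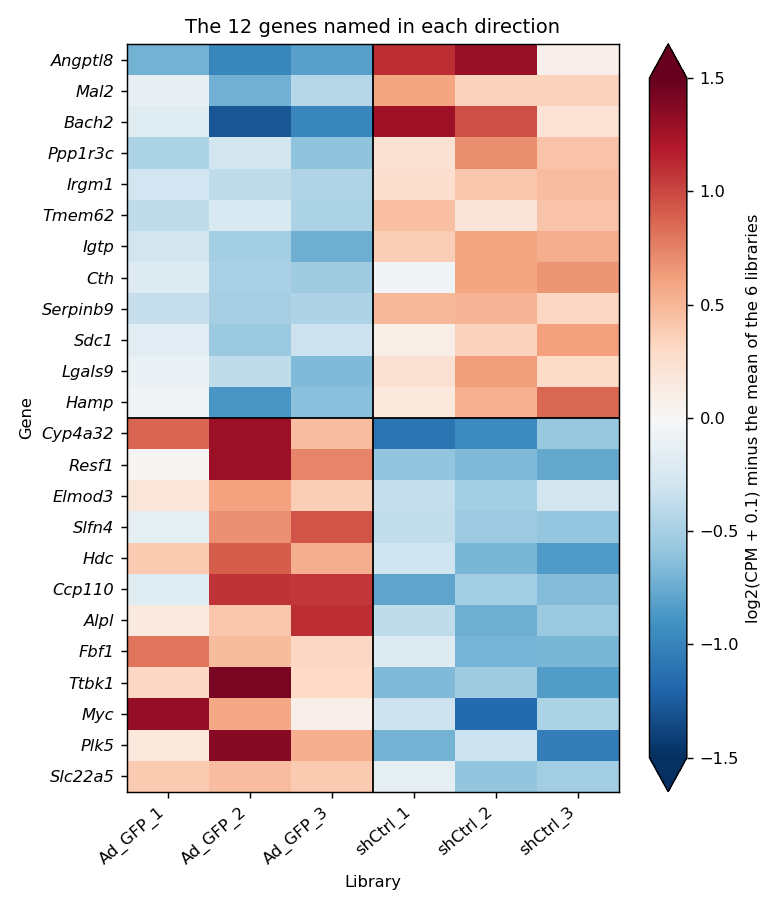
The 12 genes named in each direction (rows) in the 6 control libraries (columns), coloured by log2(CPM + 0.1) minus the mean of the 6 libraries. The upper block, led by Angptl8, is blue in all Ad_GFP columns, and the lower block is most intense in Ad_GFP_2, where Resf1 reached 89.2 CPM.

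Of the 41 gene lists examined, the GTPases and antigen presentation genes that interferon gamma induces were among the most one-sided. Of 31 members tested, 28 were higher and 3 lower in shCtrl, with a median log2 fold change of 0.28 where the median of all 14686 genes was -0.02 (quartiles -0.29 and 0.20). Of the 41 medians, 24 were above 0 and 17 below, and those close to 0 are not read as a direction. No member passed the threshold. At an unadjusted p under 0.05, 8 were higher and 0 lower, beside 4.23% and 4.53% of all genes tested. The groups did not overlap for 8, all higher, beside 7.66% of all genes. The median was 0.21 to 0.40 over the alternatives, while the number higher at an unadjusted p under 0.05 was 4 without Ad_GFP_3, 5 without shCtrl_2 and 5 with scaling by library totals alone. Irgm1 (ENSMUSG00000046879, chr11:48861968-48871683, - strand), a GTPase that controls intracellular pathogens and autophagy, held 107, 101 and 96.3 CPM in Ad_GFP and 157, 174 and 182 CPM in shCtrl (0.75, SE 0.17, adjusted p = 0.338). Igtp (ENSMUSG00000078853, chr11:58199556-58207591, + strand), of the same family, held 254, 216 and 184 CPM against 396, 464 and 448 CPM (1.00, SE 0.24, adjusted p = 0.372), and shares 11.8% of its 50-base words with Irgm2. Iigp1, the effector GTPase of the family, held 1237, 947 and 813 CPM against 1787, 2062 and 1876 CPM (0.93, SE 0.23, adjusted p = 0.372). The 3 GTPases were even within shCtrl and separate between the groups. The chemokine Cxcl9 overlapped, at 163, 49.9 and 72.8 CPM in Ad_GFP and 126, 166 and 179 CPM in shCtrl, and the 3 members that were lower on average, Nlrc5, Ciita and Cxcl10, had log2 fold changes of -0.17, -0.15 and -0.07. The summed level of the list was 9180 to 11731 CPM in Ad_GFP and 12182 to 14569 CPM in shCtrl. T and NK cells, which make interferon gamma, also had a higher summed marker level in shCtrl: 24 of 34 markers were higher (median 0.19, and 0.09 without Ad_GFP_2), the sum was 180 to 224 CPM against 140 to 188 CPM in Ad_GFP, and none of the markers was without a count. Hepatocyte markers moved the same way, as given below. In bulk RNA, a smaller number of cells of a type and less RNA per cell cannot be told apart, and the part of these cell types in the result was not tested.

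The general interferon-stimulated genes did not share this pattern, although the difference between the lists was not tested. Of 36 members, 19 were higher and 17 lower in shCtrl, with a median log2 fold change of 0.02 that became -0.05 with scaling by library totals alone. Mx1, an antiviral GTPase of the type I interferon response, held 17.7, 30.1 and 23.4 CPM in Ad_GFP and 16.4, 12.8 and 11.9 CPM in shCtrl (-0.79, SE 0.36). Oas3, which senses double-stranded RNA, held 5.50, 7.48 and 9.08 CPM against 3.53, 3.62 and 4.86 CPM (-0.88, SE 0.27). Both were lower in every shCtrl library than in any Ad_GFP library. The machinery that a hairpin meets was listed too: of 21 nucleic acid sensors and RNA interference genes, 9 were higher and 12 lower (median -0.06). Ago1, an Argonaute protein that loads small RNAs, held 22.4, 16.7 and 18.5 CPM against 23.1, 25 and 26.0 CPM (0.36, SE 0.19). Tlr7, an endosomal receptor for single-stranded RNA, held 3.86, 6.52 and 6.12 CPM against 2.85, 2.12 and 3.34 CPM (-0.99, SE 0.31). The receptors that adenovirus uses gave 6 of 10 members higher (median 0.14), and Cxadr, the main attachment receptor, overlapped at 73.3, 44.9 and 59.9 CPM against 90.1, 53.8 and 81.9 CPM. Of 21 NF-kB and cytokine genes, 10 were higher and 11 lower (median -0.05, and 0.14 without Ad_GFP_3), and Cxcl1, a neutrophil chemokine, held 35.0, 37.6 and 28.7 CPM against 20.4, 14.8 and 22.0 CPM (-0.83, SE 0.25).

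The promoter windows of Irgm1 and Igtp are shown because these GTPases head the list, with the interferon motifs in capitals. Both are the 250 bases before the RefSeq start in GRCm38.p6, printed 5′ to 3′ on the strand of the gene: chr11:48871421-48871670 on the - strand for Irgm1 and chr11:58199306-58199555 on the + strand for Igtp. The span given above for Irgm1 begins further upstream on its strand, at 48871683. The Irgm1 window therefore lies inside that span, and its distances are counted from the RefSeq start.
Irgm1: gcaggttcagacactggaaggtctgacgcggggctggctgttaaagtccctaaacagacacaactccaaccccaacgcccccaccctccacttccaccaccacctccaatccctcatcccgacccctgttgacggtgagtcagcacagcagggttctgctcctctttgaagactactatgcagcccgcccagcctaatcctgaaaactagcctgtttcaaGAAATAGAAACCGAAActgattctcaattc
Igtp: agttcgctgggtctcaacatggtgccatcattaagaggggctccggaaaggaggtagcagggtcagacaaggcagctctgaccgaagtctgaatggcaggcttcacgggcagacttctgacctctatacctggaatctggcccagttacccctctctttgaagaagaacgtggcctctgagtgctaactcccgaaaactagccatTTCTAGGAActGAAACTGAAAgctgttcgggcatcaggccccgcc
In Irgm1 the capitals are 2 overlapping matches to the core of the interferon-stimulated response element, which begin 30 and 24 bases before the start. In Igtp they are a match to TTCNNNGAA 45 bases before the start and a match to that core 34 bases before it. Of the 32851 promoter windows, 2.98% hold the core and 7.02% hold TTCNNNGAA on either strand, and a match describes the letters only.

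**Figure D3:**
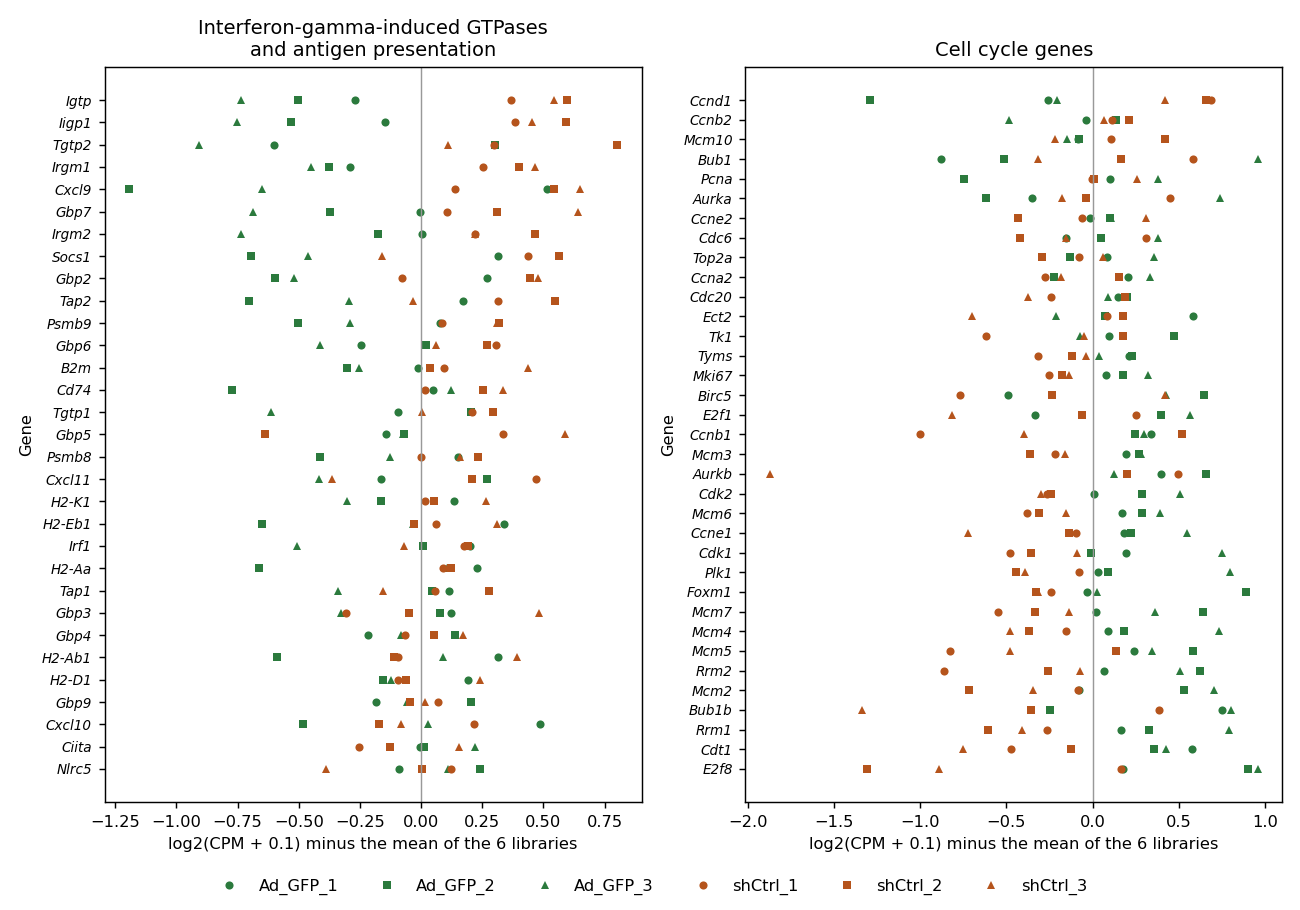
Each tested member of the interferon-gamma list (left, 31 genes) and of the cell cycle list (right, 35 genes), plotted as log2(CPM + 0.1) minus the mean of the 6 libraries, with 1 point for each library (green Ad_GFP, orange shCtrl). The orange points of Igtp, Iigp1 and Irgm1 lie to the right of all green points, and those of Cdt1, Mcm7 and Rrm2 lie to the left of them.

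Cell cycle genes went the other way and had the lowest median of the lists. Of 35 members tested, 29 were lower and 6 higher in shCtrl, with a median log2 fold change of -0.47, and all 3 shCtrl libraries lay below all 3 Ad_GFP libraries for 17 members, beside 8.45% of all genes tested. No member passed the threshold, and 8 were lower and 1 higher at an unadjusted p under 0.05, beside 4.53% and 4.23% of all genes. The number lower was 5 without Ad_GFP_2 and 5 without Ad_GFP_3, but 15 when the other 5 control libraries were fitted alone, and the median without Ad_GFP_2 was -0.35. E2f8, a repressor of the E2F family, held 9.36, 15.5 and 16.1 CPM in Ad_GFP and 9.30, 3.28 and 4.41 CPM in shCtrl (-1.27, SE 0.34, adjusted p = 0.43). It is uncertain, since 11.2% of its exonic bases are covered by Gm2788, a gene of the other strand. Cdt1, which licenses origins of replication, held 9.49, 8.14 and 8.54 CPM against 4.55, 5.81 and 3.72 CPM (-0.89, SE 0.25). Cdk2, a kinase of S-phase entry, held 13.3, 16.1 and 18.8 CPM against 11.0, 11.1 and 10.7 CPM (-0.55, SE 0.18). Cdt1 and Cdk2 were the more even of the 3, and E2f8 nearly touched at its edges. Genes of DNA replication followed: Mcm7 of the replicative helicase held 15, 23.1 and 19.1 CPM against 10.1, 11.8 and 13.5 CPM, and Rrm2 of ribonucleotide reductase 16.8, 24.8 and 22.9 CPM against 8.82, 13.5 and 15.3 CPM. Mki67, the proliferation marker, stood at 20.1, 21.5 and 23.7 CPM against 15.9, 16.8 and 17.3 CPM (-0.38, SE 0.26). Ccnd1, the cyclin of early G1, was the 1 of the 6 higher members with an unadjusted p under 0.05, at 2.53, 1.18 and 2.62 CPM in Ad_GFP and 4.95, 4.85 and 4.10 CPM in shCtrl (1.12, SE 0.40). The summed level of the list was 364 to 427 CPM in Ad_GFP and 309 to 349 CPM in shCtrl. Markers of macrophages, which divide in inflamed liver, were also lower in 18 of 24 cases with a sum of 662 to 924 CPM in Ad_GFP and 657 to 786 CPM in shCtrl, and their part in the result was not tested.

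Among metabolic lists, the urea cycle and amino acid breakdown had the highest median. The summed level of this list overlapped, at 11648, 10933 and 9122 CPM in Ad_GFP and 10459, 14303 and 17020 CPM in shCtrl. Its level in shCtrl_1 was thus below that in Ad_GFP_1 and Ad_GFP_2. Of 26 members, 19 were higher and 7 lower in shCtrl (median log2 fold change 0.35), and 9 were higher and 0 lower at an unadjusted p under 0.05 (4.23% and 4.53% of all genes), a count that was 5 without Ad_GFP_3 and 6 without shCtrl_3. Cps1, the entry enzyme of the urea cycle, held 492, 366 and 328 CPM in Ad_GFP and 500, 681 and 940 CPM in shCtrl (0.84, SE 0.22, adjusted p = 0.389). Tat, the glucocorticoid-induced tyrosine aminotransferase, held 361, 401 and 355 CPM against 533, 822 and 1618 CPM (1.41, SE 0.38). Both were highest in shCtrl_3, and Tat was the only member of the list that DESeq2 called besides Cth. Genes of the zones of the liver lobule were listed separately. Of 18 periportal genes, which include Cps1, 9 were higher and 9 lower (median 0.01, and -0.07 with scaling by library totals alone), and of 20 pericentral genes 13 were higher and 7 lower (median 0.12, and 0.20 without Ad_GFP_2). Cyp1a2, a pericentral cytochrome P450, held 586, 380 and 440 CPM against 728, 864 and 1025 CPM (0.90, SE 0.24), and Rgn, the calcium-binding protein regucalcin, 664, 378 and 414 CPM against 769, 849 and 938 CPM (0.81, SE 0.22). Bile acid synthesis and transport had 18 of 21 members higher (median 0.31, and 0.43 without Ad_GFP_2). Klb, the co-receptor through which FGF15 restrains bile acid synthesis, held 4.05, 6.37 and 4.10 CPM against 6.65, 8.34 and 8.44 CPM (0.69, SE 0.27). Cyp8b1, the sterol 12-alpha-hydroxylase, overlapped at 102, 86.6 and 37.3 CPM against 102, 154 and 119 CPM.

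Genes of lipid handling, the subject of the study, were taken list by list. Of 21 members of the ANGPTL, lipase and lipase-regulator list, 9 were higher and 12 lower (median -0.01). Angptl4, a fasting-induced inhibitor of lipoprotein lipase, held 108, 131 and 163 CPM in Ad_GFP and 85.8, 62.5 and 98.0 CPM in shCtrl (-0.71, SE 0.27, adjusted p = 0.475). The lipoprotein lipase gene Lpl overlapped, at 78.1, 67.2 and 82.4 CPM against 103, 65.8 and 61.2 CPM. Lipe, the hormone-sensitive lipase, was lower in every shCtrl library, at 29.6, 23.8 and 28.4 CPM against 14.8, 19.95 and 19.0 CPM (-0.61, SE 0.18), but 15.6% of its exonic bases are covered by a gene of the other strand and the sources used here do not give the strand setting of the counting. Fed-state and insulin-induced genes gave 14 of 24 higher (median 0.13, and -0.02 without Ad_GFP_3). Of these, Scd1, the stearoyl-CoA desaturase, held 3684, 5417 and 3892 CPM against 5098, 6075 and 12234 CPM (0.85, SE 0.29). Its groups overlapped, and shCtrl_3 stood far above the other libraries. De novo lipogenesis had 17 of 23 members higher (median 0.18, and 0.30 without Ad_GFP_2), with Elovl5, an elongase of polyunsaturated fatty acids, at 536, 438 and 429 CPM against 821, 556 and 831 CPM (0.65, SE 0.21). Cholesterol synthesis had 21 of 25 higher, with a median of 0.19 that was 0.08 without Ad_GFP_2 and 0.51 without Ad_GFP_1. The largest difference in that list was at a very low level: Fdps, the farnesyl diphosphate synthase, held 0.886, 2.37 and 0.807 CPM against 0.204, 0.342 and 0.456 CPM (-1.99, SE 0.70), and it shares 26.2% of its 50-base words with another gene model. Lipoprotein genes had 17 of 26 higher, with a median of 0.12 that was 0.06 without Ad_GFP_2 and 0.20 without Ad_GFP_1. Fatty acid oxidation leaned the other way with 23 of 34 members lower (median -0.12), and glucose and glycogen metabolism had 16 of 27 higher (median 0.09, and -0.02 without shCtrl_3). Fasting and glucocorticoid-induced genes were split into 15 higher and 14 lower, and their median of 0.10 turned to -0.23 without shCtrl_3 and to -0.08 without Ad_GFP_1.

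**Figure D4:**
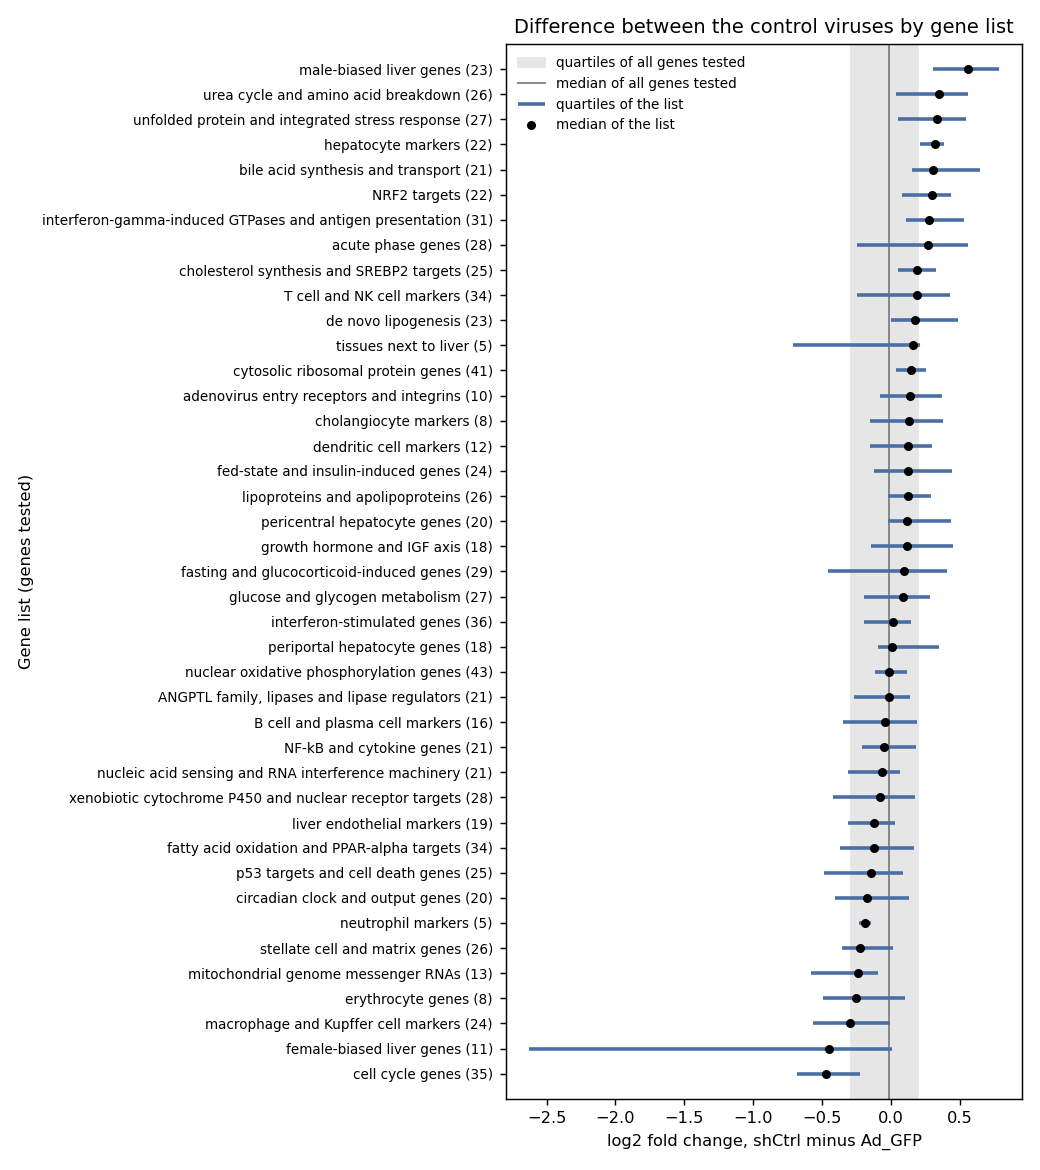
Log2 fold change of shCtrl over Ad_GFP for the 41 gene lists, with the number of genes tested in parentheses, a point at the list's median and a line from its lower to its upper quartile. The grey band marks the quartiles of all 14686 genes (-0.29 to 0.20), and the lists run from male-biased liver genes at 0.56 to cell cycle genes at -0.47.

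Hepatocyte markers leaned towards shCtrl in direction. Of 22 hepatocyte markers 21 were higher (median 0.32, and 0.19 without Ad_GFP_2). Their summed level overlapped, at 50632 to 77574 CPM in Ad_GFP and 74592 to 95069 CPM in shCtrl. At an unadjusted p under 0.05, 1 marker was higher and 0 lower, beside 4.23% and 4.53% of all genes tested. All shCtrl libraries lay above all Ad_GFP libraries for 1 marker, beside 7.66% of all genes. Genes that are expressed more in male than in female mouse liver had the highest median of all lists, with 20 of 23 higher (0.56). That median ranged from 0.35 to 0.86 over the alternatives. The number higher at an unadjusted p under 0.05 was 5, beside 621 (4.23%) of all genes tested. It was 14 without Ad_GFP_1, 2 without Ad_GFP_2 and 1 without Ad_GFP_3, and the number over all genes also rose without Ad_GFP_1, to 966. Ugt2b1, a glucuronosyltransferase of this list, held 230, 148 and 167 CPM in Ad_GFP and 275, 355 and 378 CPM in shCtrl (0.89, SE 0.23). The sex of the mice is not in the labels, and the female-biased list gave 8 of 11 members lower (median -0.45, -2.04 without shCtrl_3 and -0.21 without Ad_GFP_2). The growth hormone axis, which sets these sex differences, had 11 of 18 members higher (median 0.12). Its leading gene, Egfr, the receptor of epidermal growth factor, held 436, 286 and 300 CPM against 691, 676 and 553 CPM (0.91, SE 0.27), and the growth hormone receptor Ghr 403, 278 and 248 CPM against 420, 426 and 485 CPM (0.52, SE 0.20). The unfolded protein and integrated stress response had 22 of 27 members higher (median 0.34, and 0.13 without Ad_GFP_2). Its number higher at an unadjusted p under 0.05 was 5, beside 4.23% of all genes tested. Without Ad_GFP_1 it was 15, in the fit where the number over all genes rose to 966. Herpud1, of endoplasmic-reticulum-associated degradation, held 228, 207 and 194 CPM against 247, 279 and 432 CPM (0.61, SE 0.20). Targets of NRF2, the regulator of the antioxidant response, had 18 of 22 higher (median 0.30, and 0.18 without Ad_GFP_2). Of the 22, 1 was higher at an unadjusted p under 0.05, beside 4.23% of all genes tested. All shCtrl libraries lay above all Ad_GFP libraries for 3, beside 7.66% of all genes. Txnrd1, a thioredoxin reductase of this list, held 132, 111 and 137 CPM against 181, 165 and 180 CPM (0.47, SE 0.19). Acute phase genes had 18 of 28 higher (median 0.27, and 0.17 without Ad_GFP_2). Cytosolic ribosomal protein genes had 33 of 41 higher (median 0.15), and all shCtrl libraries lay above all Ad_GFP libraries for 9, beside 7.66% of all genes. Of the 41, 4 were higher at an unadjusted p under 0.05, beside 4.23% of all genes tested, and 0 without Ad_GFP_2 and 0 with scaling by library totals alone. Clock genes were lower for 12 of 20 (median -0.18). Genes of p53 signalling and cell death were lower for 17 of 25 (median -0.14), with the stress-induced Sesn2 at 22.0, 24.3 and 28.3 CPM against 16.8, 11.4 and 18.3 CPM (-0.68, SE 0.24). Xenobiotic cytochrome P450 genes and nuclear receptor targets were split 12 to 16 (median -0.08), and Nr1i2, which encodes the pregnane X receptor, held 119, 113 and 128 CPM against 77.9, 82.4 and 94.4 CPM (-0.50, SE 0.17). Nuclear genes of oxidative phosphorylation were balanced, with 20 higher and 23 lower (median -0.01), while 11 of 13 messenger RNAs of the mitochondrial genome were lower (median -0.24), a value that was -0.01 without Ad_GFP_2.

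Macrophage and Kupffer cell markers were mostly lower in shCtrl. Of 24 tested, 18 were lower and 6 higher (median -0.30, and -0.12 without Ad_GFP_3), and all shCtrl libraries lay below all Ad_GFP libraries for 7, beside 8.45% of all genes, and above them for 0. The 7 were Clec4f, Trem2, Cd5l, Cd68, Csf1r, C1qb and Itgam. Clec4f, which marks Kupffer cells, held 62.7, 86.6 and 85.6 CPM in Ad_GFP and 55.8, 42.4 and 43.3 CPM in shCtrl (log2 fold change -0.73, SE 0.18, adjusted p = 0.372 in edgeR). Trem2, a lipid-sensing receptor of macrophages, held 1.46, 2.07 and 1.95 CPM against 0.204, 0.957 and 0.684 CPM (-1.56, SE 0.52). Others overlapped, among them Timd4, which held 9.62, 7.40 and 9.28 CPM against 7.13, 5.53 and 10.8 CPM, and Adgre1, the gene of F4/80, which held 6.01, 6.59 and 9.48 CPM against 6.99, 5.26 and 7.68 CPM. Mpeg1, a pore-forming protein of macrophages, leaned the other way, at 180, 118 and 143 CPM against 154, 206 and 242 CPM. Among T and NK cell markers, Nkg7, of cytotoxic granules, held 13.5, 7.85 and 9.55 CPM against 13.6, 17.2 and 24.7 CPM (0.84, SE 0.27), a gap of almost nothing between Ad_GFP_1 and shCtrl_1. Trbc2, a constant segment of the T cell receptor that shares 44.0% of its 50-base words with Trbc1, held 13, 7.77 and 10.8 CPM against 18.9, 14.6 and 18.1 CPM. B cell and plasma cell markers were split 7 to 9 (median -0.04), dendritic cell markers 7 to 5 (median 0.13, and -0.05 without Ad_GFP_1), and 12 of 19 endothelial markers were lower (median -0.12, and 0.05 without Ad_GFP_3). Neutrophil markers were lower for 4 of 5 (median -0.19, and 0.23 without Ad_GFP_3), with S100a8 at 2.34, 3.33 and 7.20 CPM in Ad_GFP and 2.78, 1.23 and 3.27 CPM in shCtrl. Stellate cell and matrix genes were lower for 19 of 26 (median -0.22, and 0.26 without Ad_GFP_3), with summed levels that overlapped at 607 to 757 CPM in Ad_GFP and 665 to 849 CPM in shCtrl. The summed level of 23 genes of neighbouring tissues, such as fat, pancreas and muscle, overlapped too, at 2383 to 3061 CPM and 2676 to 3415 CPM, and 6 of them had no count in any of the 6 libraries: Amy2a2, Ins2, Myh4, Pnlip, Reg3b and Retn.

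The spread between replicates was slightly larger with the GFP virus. The median SD of log2 CPM over the 3 libraries was 0.281 in Ad_GFP and 0.253 in shCtrl, and the SD was larger in Ad_GFP for 8100 genes (55.2%). Pairs of Ad_GFP libraries differed by 2-fold or more in 9.10% to 13% of the genes and pairs of shCtrl libraries in 7.46% to 10.5%, against 7.84% to 17.9% for pairs that took a library from each group. The common biological coefficient of variation, the relative spread beyond counting noise, was 0.245 in Ad_GFP and 0.205 in shCtrl. It was 0.203 in Ad_GFP without Ad_GFP_2 and 0.146 in shCtrl without shCtrl_3, so each group held 1 library that widened it most. Without Ad_GFP_2 alone the Ad_GFP value was close to that of all 3 shCtrl libraries, and with the widest library of each group left out Ad_GFP was again the wider. Without Ad_GFP_1 or Ad_GFP_3 the Ad_GFP value was 0.238 or 0.281, and without shCtrl_1 or shCtrl_2 the shCtrl value was 0.219 or 0.234. As a check for a library deposited more than once, the mean chi-square per gene was 14.5 or more in each pair of a group, where sampling noise alone would give about 1.

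Single libraries differed from the other 2 of their group in whole gene lists. The values that follow are the median over a list's members of the difference in log2 CPM from the other 2 libraries. In Ad_GFP_2 the difference was -0.77 for the unfolded protein response and -0.75 for male-biased genes, while messenger RNAs of the mitochondrial genome were higher by 0.78 and female-biased genes by 1.72. In Ad_GFP_3 the stellate cell and matrix list was higher by 0.90 and NRF2 targets by 0.64. In shCtrl_3 fasting and glucocorticoid-induced genes were higher by 0.76, stellate cell and matrix genes by 0.67 and the urea cycle list by 0.46. These are descriptions of 1 library each and carry no test. The level of a list in a library was taken as the mean log2 CPM of its members, and for 35 of the 41 lists the levels of the groups overlapped. The 3 shCtrl levels all lay above the 3 Ad_GFP levels for the bile acid, interferon-gamma and adenovirus receptor lists. They all lay below for the cell cycle list, the p53 list and the list of nucleic acid sensors and RNA interference genes. That is 3 of 41 lists in each direction, beside 7.66% above and 8.45% below among all genes tested. The count is therefore not read as a result about these lists. The cell cycle level, centred on the 6 libraries, was 0.07, 0.16 and 0.36 in Ad_GFP and -0.14, -0.14 and -0.31 in shCtrl, and the interferon-gamma level was 0.04, -0.27 and -0.30 against 0.13, 0.20 and 0.21.

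**Figure D5:**
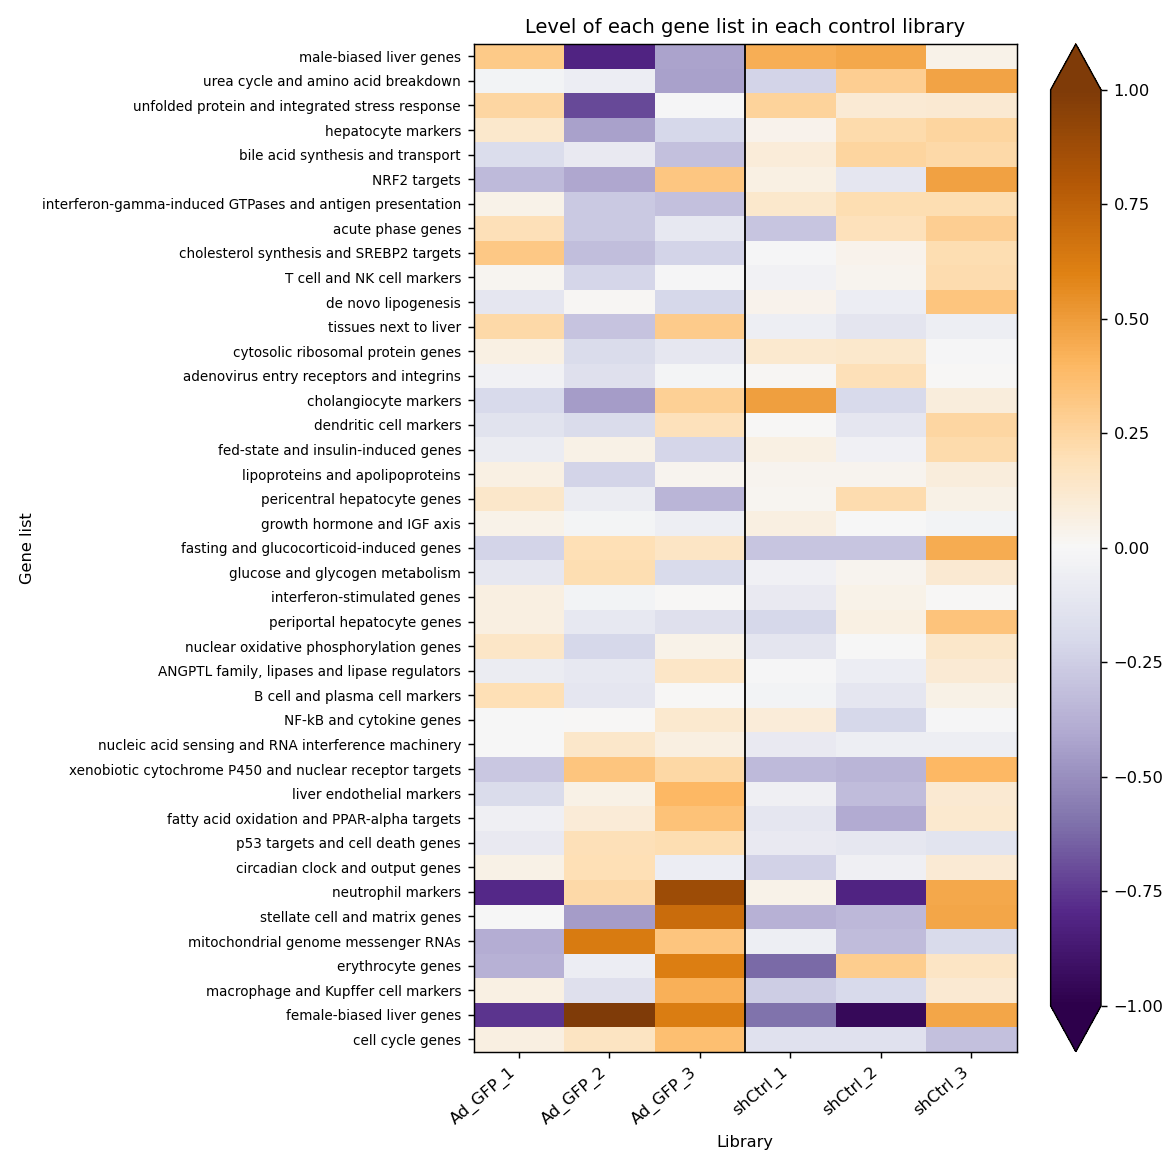
The level of each of the 41 gene lists (rows) in each control library (columns), as the mean log2 level of its members centred on the 6 libraries. The row of female-biased liver genes swings within both groups, reaching 1.22 in Ad_GFP_2 and -0.95 in shCtrl_2, whereas the cell cycle row at the bottom is above 0 in all Ad_GFP libraries and below 0 in all shCtrl libraries.

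The genes with the widest spread within a control group were mostly members of duplicated families. Of 13 such genes, the 8 widest of each group with 3 shared by both, 10 share sequence or overlap with another gene and are uncertain. Mup7, a major urinary protein, held 647, 17.1 and 196 CPM in Ad_GFP and 370, 567 and 267 CPM in shCtrl. Mup12 held 1303, 81.1 and 302 CPM against 832, 1289 and 682 CPM, and in both genes Ad_GFP_2 was the lowest library. Mup15 was instead set apart by shCtrl_3, at 13.5, 11.8 and 419 CPM in shCtrl and 34.5, 2.15 and 10.4 CPM in Ad_GFP. Gapdh, a glycolytic enzyme often used as a reference gene, was among them, at 18.0, 489 and 21.5 CPM in Ad_GFP and 286, 32.2 and 21.0 CPM in shCtrl, with 25.1% of its 50-base words shared with other gene models. Cyp2a4, a steroid hydroxylase that is higher in female liver, held 18.3, 58.9 and 232 CPM in Ad_GFP and 25, 17.2 and 290 CPM in shCtrl, so that library 3 of either group was the high one. Hamp2, the other hepcidin gene, held 44.5, 30.8 and 28.2 CPM against 7.13, 17.6 and 111 CPM. Cyp4a14 and Serpina4-ps1 were among the 3 genes of this set that share little sequence with others. Cyp4a14, a PPAR-alpha target of fatty acid omega-hydroxylation, held 13.5, 66.6 and 86.5 CPM in Ad_GFP and 10.2, 8.20 and 42.6 CPM in shCtrl. Serpina4-ps1 held 182, 1150 and 957 CPM against 729, 427 and 133 CPM.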

How the data were processed

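Total liver RNA was extracted with Trizol and made into libraries with the NEBNext Ultra RNA kit, per the labels' protocols. The authors deposited raw read counts per gene, in whole numbers and without normalization. CASAVA 1.8.2, featureCounts 1.5.0-p3 and mm9 are in the submitters' processing notes. Of 54532 genes, 54409 have identifiers in GENCODE vM21, and 98.33% of those have its GRCm38 coordinates, so positions are given in GRCm38. The sources used here do not give the aligner, annotation release or strand setting.

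Genes were filtered with filterByExpr (14686 kept), scaled by TMM and fitted over all 12 libraries with edgeR 4.0.16 (robust quasi-likelihood) in R 4.3.3, with Benjamini-Hochberg adjustment over all genes. Log2 levels of lists and of the spread use a prior count of 2. DESeq2 1.42.0, limma 3.58.1, other scalings and filters, a replicate block and leaving out each library were alternatives. The script was tested on simulated data. Counts with shared 50-base words or overlapping exons of 10% or more are called uncertain, since reads could be split or lost between genes.

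The named genes were Angptl8, up to 12 in each direction by unadjusted p with groups that did not overlap and a mean of at least 1 log2 CPM, up to 3 of each list by unadjusted p, and the 8 with the largest SD in each group among those with a mean of at least 3 log2 CPM, without predicted-gene symbols in the first and last of these. Other genes named were chosen after their values were seen. The comparison and the 41 lists (881 of 884 symbols found) were chosen with earlier results of these data known.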

Additional observations from a re-analysis of the deposited data

How the results depend on the processing

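The number of genes called was 0 in the reported fit. It was 96 without a filter on low counts (42 higher and 54 lower in shCtrl), 38 in DESeq2 (15 and 23) and 5 with the replicate block (1 and 4), and the cause was not tested. Leaving out 1 library at a time gave 0 to 10 calls, 0 to 5 in each direction: 10 without Ad_GFP_1, 1 without shCtrl_3 and 0 without any of the others. The remaining alternatives called 0 genes. The log2 fold change of Angptl8 kept its direction in all 18 alternatives and passed the threshold in 4: 1.76 without a filter, 1.75 in DESeq2, 1.64 with the replicate block (adjusted p = 0.0421 in edgeR) and 2.05 without shCtrl_3, over a leave-one-out range of 1.53 to 2.05. Whether the replicate numbers pair the libraries is not in the labels. The deviations of same-numbered libraries from their group means correlated at -0.0381, 0.0725 and 0.0813 across genes, and those of differently numbered libraries at -0.128 to 0.0376. Not every library correlated best with its own number. Deviations from means of 3 libraries depend on each other, so these values cannot decide the question. For 97 other named genes, 1670 values under alternatives kept their direction and side of the threshold, 65 came past it and 0 reversed. Of the medians of gene lists, 743 stayed within the spread and 12 moved beyond it. The median SD within groups was 0.286 in Ad_GFP and 0.258 in shCtrl with a prior count of 0.5, and 0.206 and 0.183 among 7401 genes of at least 10 CPM. The fit on 5 libraries without Ad_GFP_2 was chosen after seeing the data. With a median SE of 0.261, most differences under 2-fold could not be called at this depth and number of libraries. Larger ones went uncalled as well: 797 genes differed by 2-fold or more in the reported fit, and 0 of them passed the threshold.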
